A study of Mus musculus with 4 samples.

Results

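The receptors of the tumour necrosis factor (TNF) superfamily that T cells carry were followed in cultured regulatory T (Treg) cells of the mouse. The 10 genes were Tnfrsf4, Tnfrsf9, Tnfrsf18, Cd27, Tnfrsf8, Tnfrsf1a, Tnfrsf1b, Fas, Tnfrsf25 and Tnfrsf26, chosen by name as receptors of the superfamily, and every array probe whose gene name was one of them was kept. They had 15 probes of the 56310 on the array, and 10 of its 36942 gene names. Of the 15 probes, 14 passed the filter, which asked for a signal well above the local background on each array of 1 genotype or of both, and were tested. The probe of Tnfrsf8 was not.

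RNA was measured on 4 single-colour Agilent arrays, 2 labelled Junbfl/flCd4-Cre and 2 labelled control, of genotype Junbfl/fl. Both groups are C57BL/6 and carry the same loxP-flanked Junb alleles, and the first also carries a Cre recombinase driven by the Cd4 promoter, so deletion is not limited to Treg cells. Naive CD4+ T cells were sorted and cultured for 3 days with antibodies to CD3 at 1 μg/ml and to CD28 at 0.5 μg/ml as a stimulus, with IFN-γ and IL-4 each blocked by antibody at 5 μg/ml, and with 5 ng/ml of TGF-β1, conditions used to drive Treg differentiation. The comparison asks how T cells without JunB, a subunit of the transcription factor AP-1, differ after this culture. The labels give neither ages nor whether the 2 arrays of each genotype hold separate animals or cultures. Each p-value below therefore rests on a spread between arrays that could be technical.

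TNF superfamily receptors are cell surface proteins that bind trimeric ligands and signal either through TRAF adaptors to NF-kappaB, which favours survival and proliferation, or through an intracellular death domain to caspases. Treg cells are known for carrying several of the TRAF-binding members, among them GITR (Tnfrsf18), OX40 (Tnfrsf4), 4-1BB (Tnfrsf9) and TNFR2 (Tnfrsf1b). Their expression responds to stimulation through the T cell receptor, a stimulus that also activates AP-1 and NF-kappaB.

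The Junb probes were read first as a check of the labels. Probe A_55_P2011106 had processed signals of 4.11 and 1.47 on arrays 1 and 2 labelled Junbfl/flCd4-Cre, both not well above background, against 47.2 and 31.7 on control arrays 1 and 2. A second Junb probe, A_51_P159194, had 1053 and 10078 on the arrays labelled Junbfl/flCd4-Cre against 9791 and 9072 on the controls, so array 2 labelled Junbfl/flCd4-Cre lay above both controls there and went against its label. The sources used here do not give which part of Junb is flanked, so whether that probe lies in it is unknown. For this reason the difference of the called receptor probe is also given without that array.

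The arrays differed in brightness. Well above background were 66.3% and 61.0% of the spots on the arrays labelled Junbfl/flCd4-Cre, against 60.5% and 59.3% on the controls, and their 75th percentiles over probes were 119 and 101 in processed signal, against 151 and 145 on the controls. All differences below are on the log2 scale, labelled Junbfl/flCd4-Cre minus control, after each array's 75th percentile was subtracted. Errors are standard errors of the limma fit, with n = 2 arrays per genotype. A probe was called when its limma p, adjusted by the Benjamini-Hochberg method over all 33606 tested probes, was under 0.05. An exact permutation test of 2 arrays against 2 cannot go below a two-sided p of 0.333.

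The labelled cell type was checked against marker genes. All 8 T cell markers on the array were well above background on all 4 arrays, and so were the 4 Treg markers Foxp3, Il2ra, Ctla4 and Ikzf2. The summed signal of the Treg markers, in units of the array's 75th percentile, was 29.0 and 49.9 on the arrays labelled Junbfl/flCd4-Cre and 96.3 and 94.0 on the controls. Il2ra makes up most of that sum, and the list did not move one way: Foxp3, Il2ra and Ctla4 were lower and Ikzf2 higher. Foxp3 had 298 and 584 against 1287 and 1301 on the controls, at -1.20 ± 0.45 (adjusted limma p 0.135). The Il2ra probes were at -1.67 and -0.91 (adjusted limma p 0.0669 and 0.297). Neither Foxp3 nor Il2ra was called. All 3 probes of Ikzf2, which encodes Helios, were called higher, with 801 and 716 against 69.9 and 26.7 on the controls at A_55_P2719095 (4.56 ± 0.49, adjusted limma p 0.0306). Ctla4, an inhibitory receptor, was called lower, at -1.47 ± 0.24 (adjusted limma p 0.0484). The Ctla4 call was lost with normexp background correction and with quantile normalization (adjusted p 0.0638 and 0.0611). So was the call of Ikzf2 probe A_52_P268911 (adjusted p 0.0541 and 0.0706). The extraction protocol speaks of colon, unlike the other labels. Of 8 markers of colon epithelium, Krt20, Vil1, Cdh1, Cdx1 and Muc2 were not above background on any array, and the summed signal was 0.490 and 0.607 against 0.474 and 0.496. Of 7 stroma markers, 2 were above background on all arrays and Pdgfra and Pdgfrb on none, with sums of 17.1 and 17.6 against 28.5 and 23.9. That sum is almost all Acta2, with 1962 and 1730 at its brighter probe against 4275 and 3433 on the controls. Dcn and Col1a1, matrix genes of fibroblasts, went the other way. Dcn had 19.1 and 10.1 against 2.11 and 2.02, and Col1a1 had 6.66 and 9.96 against 2.15 and 1.51, with neither well above background on a control. On the 75th percentile scaling they were at least 3.22-fold and at least 1.88-fold higher (adjusted limma p 0.0276 and 0.0394). For these bounds a control's background was taken as its lowest signal well above it. The bounds hold for this scaling only. With normexp the log2 differences were 0.24 and 0.15, which are smaller (adjusted p 0.143 and 0.282). With quantile normalization they were 2.48 and 2.05 (0.0527 and 0.0932). Neither gene was called with either. Of the 5 tested stroma probes 2 were called higher, or 40%, against 5.53% of all probes, and none lower. Their median difference was 1.24, against -0.01 over all probes. Their part in the receptor values was not tested.

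Promoter sequences of the receptors are shown because JunB is an AP-1 subunit and the receptors signal to NF-kappaB. RefSeq promoter windows on build GRCm38.p6 were found for 9 of the 10 genes, all except Tnfrsf26, and the 250 bases before each annotated start gave 11 windows. They were searched on both strands for the AP-1 motif TGANTCA and for the NF-kappaB consensus, and no match of one overlapped a match of the other. The windows printed are both starts of Tnfrsf9, the receptor with a called probe, and those of Tnfrsf8 and Fas, the other windows with an AP-1 match. Capitals mark the motif matches, and a run in capitals can hold overlapping matches of the same motif.
Tnfrsf9 start 1, chr4:150919905-150920154, plus strand: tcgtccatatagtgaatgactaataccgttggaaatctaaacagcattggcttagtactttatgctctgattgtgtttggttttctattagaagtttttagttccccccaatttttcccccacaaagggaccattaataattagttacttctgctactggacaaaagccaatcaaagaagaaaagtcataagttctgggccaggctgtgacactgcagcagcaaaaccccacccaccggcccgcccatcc
Tnfrsf9 start 2, chr4:150927749-150927998, plus strand: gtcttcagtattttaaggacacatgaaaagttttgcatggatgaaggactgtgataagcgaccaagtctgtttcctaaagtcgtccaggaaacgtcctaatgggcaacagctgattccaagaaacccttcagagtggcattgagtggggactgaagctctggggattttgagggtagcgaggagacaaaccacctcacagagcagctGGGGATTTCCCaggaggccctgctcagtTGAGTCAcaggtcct
Tnfrsf8, chr4:145315165-145315414, minus strand: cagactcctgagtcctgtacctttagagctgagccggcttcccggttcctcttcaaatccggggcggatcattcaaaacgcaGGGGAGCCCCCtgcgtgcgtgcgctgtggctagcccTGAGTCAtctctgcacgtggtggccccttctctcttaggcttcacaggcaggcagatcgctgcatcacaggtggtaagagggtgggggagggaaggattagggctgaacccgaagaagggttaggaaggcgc
Fas, chr19:34290409-34290658, plus strand: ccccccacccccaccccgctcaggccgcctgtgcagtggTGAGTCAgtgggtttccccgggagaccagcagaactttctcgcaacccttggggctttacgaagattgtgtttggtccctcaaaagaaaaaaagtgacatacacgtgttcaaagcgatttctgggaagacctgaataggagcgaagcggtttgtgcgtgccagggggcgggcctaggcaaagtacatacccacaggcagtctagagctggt

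The second start of Tnfrsf9 had an AP-1 match 15 to 9 bases before the start and an NF-kappaB match 43 to 33 bases before it, while the window of its first start held neither. Tnfrsf8 had both, at 132 to 126 and at 168 to 158 bases. Fas had the AP-1 match, at 211 to 205 bases, and the second start of Tnfrsf25 the NF-kappaB match, at 28 to 19 bases. The other 7 windows, those of Tnfrsf4, Tnfrsf18, Tnfrsf1a, Tnfrsf1b, Cd27 and the first starts of Tnfrsf9 and Tnfrsf25, held neither. Thus 3 of the 11 windows had the AP-1 motif and 3 the NF-kappaB motif, against 6.75% and 7.25% of all 32851 windows of this length. A match is a description of the letters in the window and not a bound site.

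**Figure D1:**
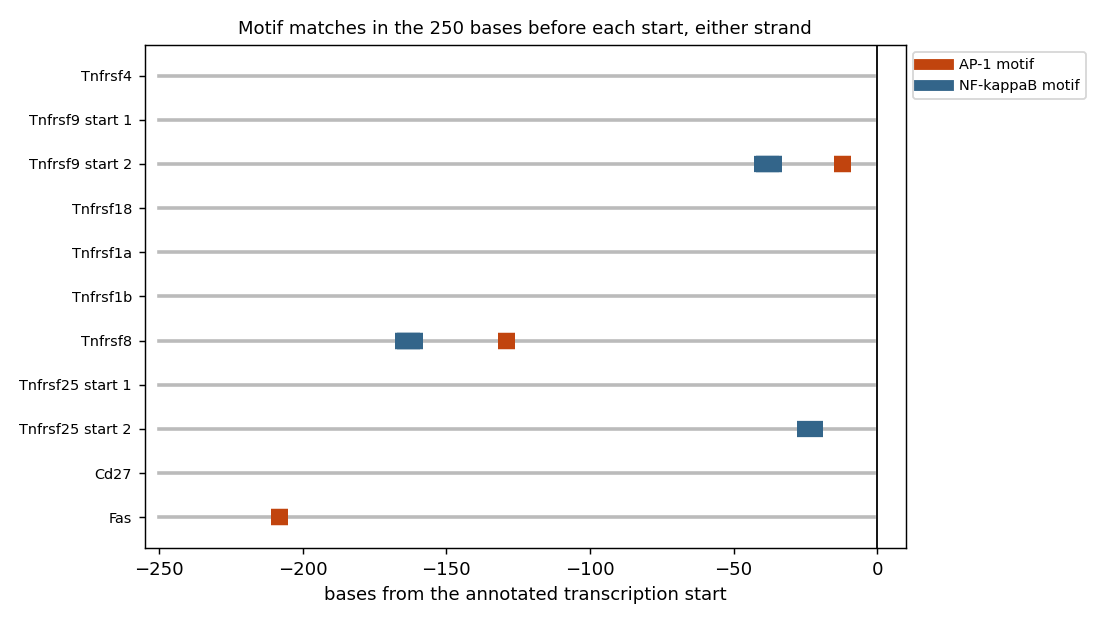
Position of AP-1 (TGANTCA) and NF-kappaB motif matches in the 250 bases before each annotated start of 9 receptor genes, with the horizontal axis in bases from the start. The second start of Tnfrsf9 and the window of Tnfrsf8 hold both motifs, and 7 of the 11 windows hold neither.

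Among the costimulatory receptors, Tnfrsf9 was higher on the arrays labelled Junbfl/flCd4-Cre. Tnfrsf9 encodes 4-1BB (CD137), an activation-induced receptor that recruits TRAF adaptors. Its probe A_55_P2831060 (mm9, chr4:150320145-150320204, plus strand) had processed signals of 3733 and 3450 on the arrays labelled Junbfl/flCd4-Cre and 2413 and 1811 on the controls. Both arrays labelled Junbfl/flCd4-Cre lay above both controls, and this held before and after scaling. The log2 difference was 1.21 ± 0.20 (SE), or 2.31-fold, with an adjusted limma p of 0.0491, so Tnfrsf9 rose by this probe. The p lay close to the threshold. With any 1 array left out, the difference stayed between 1.03 and 1.38. It was 1.15 without array 2 labelled Junbfl/flCd4-Cre, whose second Junb probe went against its label. Such a fit leaves 1 array in a genotype, and no probe of the whole array was called in it. The loss of the call there is therefore no result about Tnfrsf9 or about that array. Scaled to the array median, the difference was 0.68 with an adjusted p of 0.0924. In bulk RNA, more cells that carry a transcript and more of it per cell cannot be told apart.

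The second Tnfrsf9 probe, A_55_P2082180, lies upstream in the same gene (mm9, chr4:150319101-150319160). It had 1486 and 1250 on the arrays labelled Junbfl/flCd4-Cre, against 1003 and 574 on the controls. Again both arrays labelled Junbfl/flCd4-Cre were above both controls, with control 2 the lowest. The difference was 1.28 ± 0.30, with an adjusted limma p of 0.0736, and thus was not called. Between arrays of the same number, the difference was 0.91 for number 1 and 1.64 for number 2 at this probe, and 0.97 and 1.45 at the called probe. In the authors' deposited table, the single row for the Tnfrsf9 transcript that both probes are annotated to had a log2 difference of 1.54 with an adjusted p of 0.0441. It was the 1 receptor row of 12 under 0.05 in the authors' deposited table, where 2.41% of all 26594 rows were under it and 1.76% were under it and higher on the arrays labelled Junbfl/flCd4-Cre.

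Tnfrsf4 and Tnfrsf18 encode OX40 and GITR and are neighbouring genes on chromosome 4. The Tnfrsf4 probe (A_55_P2125491, mm9, chr4:155390639-155390698, plus strand) had 11354 and 8139 on the arrays labelled Junbfl/flCd4-Cre and 22687 and 13512 on the controls. The processed signals did not overlap, with control 1 the brightest, but after scaling the genotypes overlapped. The log2 difference was -0.44 ± 0.29 with an adjusted limma p of 0.32, and its 95% interval ran from -1.24 to 0.37. The Tnfrsf18 probe (A_55_P2025490, mm9, chr4:155402941-155403000, plus strand) had 9223 and 7123 against 13427 and 7426 on the controls. After scaling, control 1 was above both arrays labelled Junbfl/flCd4-Cre and control 2 below both. Its difference was 0.13 ± 0.32, with an adjusted limma p of 0.777 and an interval from -0.74 to 1.00, and it turned negative with median scaling (-0.40). Neither difference passed the test, and both intervals hold 0 as well as differences near 1 in size.

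Cd27 encodes a receptor of naive and memory T cells whose ligand is CD70. Its probe (A_55_P2164428, mm9, chr6:125183200-125183259, minus strand) had processed signals of 293 and 253 on the arrays labelled Junbfl/flCd4-Cre and 208 and 249 on the controls. Both arrays labelled Junbfl/flCd4-Cre were above both controls, with 253 and 249 close together before scaling. The difference was 0.69 ± 0.19 with an adjusted limma p of 0.0862, and was not called. Tnfrsf8, which encodes CD30, was not measured above background: its probe (A_51_P205334, mm9, chr4:144882582-144882641, minus strand) had 1.11 and 1.47 on the arrays labelled Junbfl/flCd4-Cre and 1.30 and 3.96 on the controls. No fold is given for it, although its promoter window held both motifs.

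The receptors for TNF itself differed in sign. Tnfrsf1a encodes TNFR1, which has a death domain and is found on most cell types, and Tnfrsf1b encodes TNFR2, which binds TRAF2 and is abundant on Treg cells. Of the Tnfrsf1a probes, A_52_P192426 (mm9, chr6:125312376-125312435, plus strand) had 419 and 370 on the arrays labelled Junbfl/flCd4-Cre and 696 and 728 on the controls. The dimmer probe A_51_P106047 (mm9, chr6:125311454-125311513) had 23.9 and 20.2 against 39.2 and 44.8. At both, each array labelled Junbfl/flCd4-Cre was below each control, before and after scaling. The differences were -0.42 ± 0.15 and -0.50 ± 0.17, with adjusted limma p of 0.131 and 0.119, so neither was called. With median scaling they were -0.96 and -1.03, with adjusted p of 0.0335 and 0.0331. With quantile normalization they were -0.21 and -0.82 (adjusted p 0.403 and 0.0733), and with normexp -0.19 and -0.28 (0.210 and 0.108).

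For Tnfrsf1b, probe A_52_P228621 (mm9, chr4:144804304-144804363, minus strand) had 1216 and 777 on the arrays labelled Junbfl/flCd4-Cre and 865 and 773 on the controls. These overlap before scaling and separate after it, with both arrays labelled Junbfl/flCd4-Cre above. Probe A_55_P2738892 (mm9, chr4:144833903-144833961), annotated to another transcript record of the gene, had 157 and 116 against 109 and 115. The differences were 0.68 ± 0.21 and 0.70 ± 0.17, with adjusted limma p of 0.101 and 0.0761, and neither was called. Under median scaling they were 0.15 and 0.17, so their size rested on the scaling. In the authors' deposited table the Tnfrsf1b rows had differences of 0.88 and 0.66 (adjusted p 0.0717 and 0.0703), and the Tnfrsf1a row -0.36 (adjusted p 0.112).

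**Figure D2:**
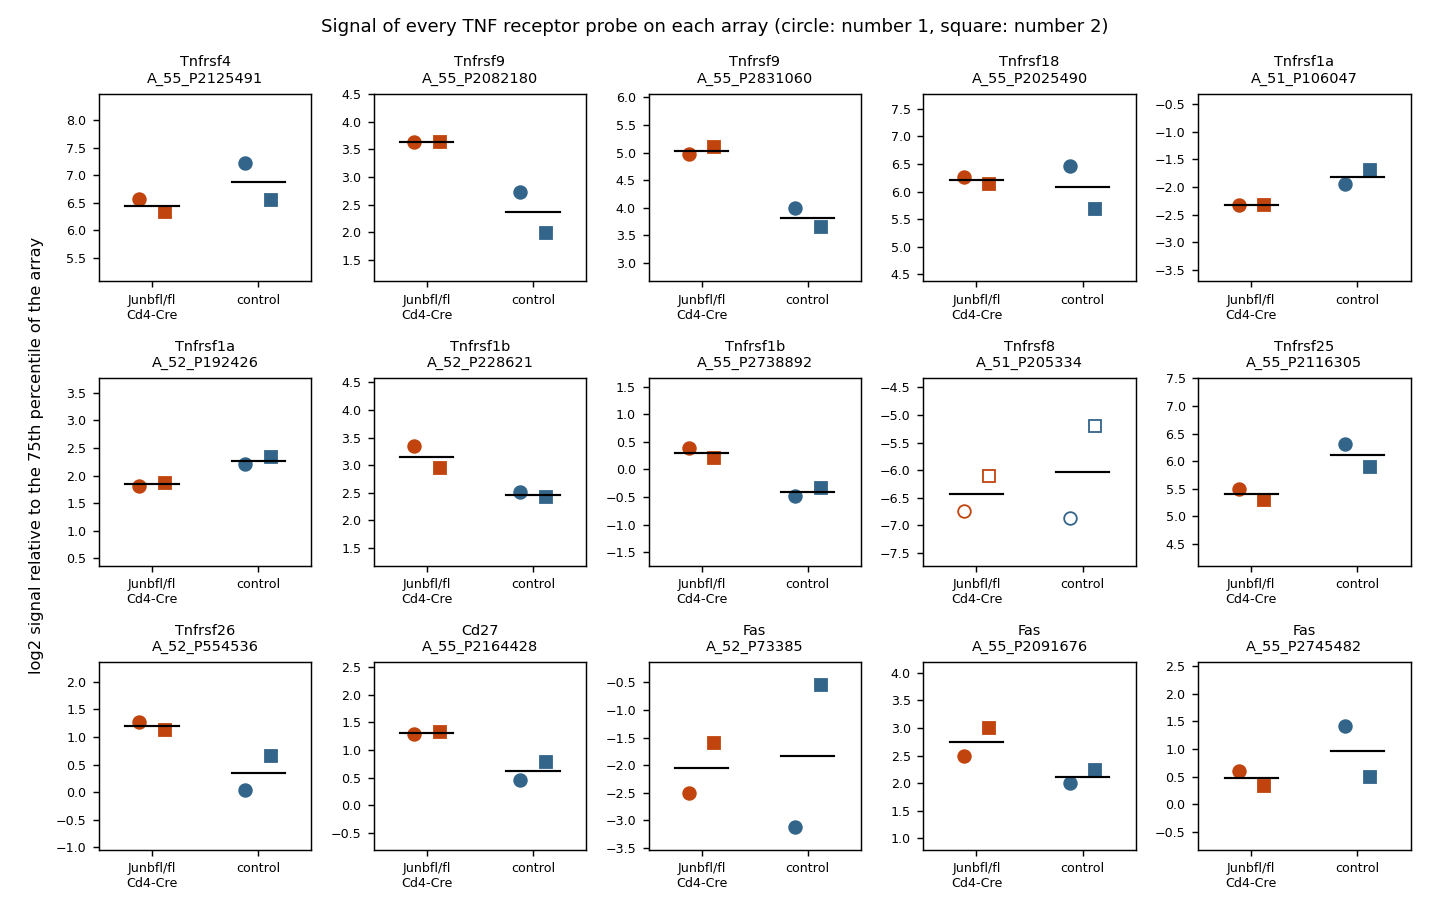
Log2 processed signal relative to the array's 75th percentile (vertical axis, its own range in each panel) for all 15 receptor probes, with the 2 arrays labelled Junbfl/flCd4-Cre left of the 2 controls. Circles are number 1 arrays, squares number 2, lines the means and open symbols signals not well above background. Both Tnfrsf9 probes lie above the controls on both arrays labelled Junbfl/flCd4-Cre, the Tnfrsf1a and Tnfrsf25 probes lie below, and Tnfrsf8 has open symbols throughout.

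Fas and Tnfrsf25 are death-domain receptors. Fas is the receptor for Fas ligand and triggers caspase-8, and Tnfrsf25 encodes DR3, whose ligand TL1A (Tnfsf15) expands Treg cells. The Tnfrsf25 probe (A_55_P2116305, mm9, chr4:151494160-151494219, plus strand) had 5419 and 3992 on the arrays labelled Junbfl/flCd4-Cre and 12075 and 8665 on the controls. Every control was above each array labelled Junbfl/flCd4-Cre. The difference was -0.71 ± 0.22 with an adjusted limma p of 0.102, and was not called. With median scaling it was -1.24 with an adjusted p of 0.0346. With quantile normalization it was -0.40 (adjusted p 0.240), and with normexp -0.37 (0.179).

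The array held 3 probes named Fas, which disagreed. Probe A_55_P2091676 (mm9, chr19:34402164-34402223, plus strand), on transcript variant 1, had 675 and 805 on the arrays labelled Junbfl/flCd4-Cre and 603 and 685 on the controls. Its genotypes overlapped before scaling and separated after it, with a difference of 0.63 ± 0.24 and an adjusted limma p of 0.143. Probe A_52_P73385 (chr19:34383733-34383792), on variant 2, had 21.1 and 33.2 against 17.4 and 99.6, so the controls lay on either side of the arrays labelled Junbfl/flCd4-Cre. Its difference was -0.22 ± 0.96 (adjusted limma p 0.876), and it was 1.07 without control 2. No Fas probe was called.

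The remaining probe named Fas, A_55_P2745482, does not lie at the Fas gene on chromosome 19. The files place it on mm9 at chr4:40555124-40555183, minus strand, and describe its transcript as a Fas mRNA joined to the long terminal repeat (LTR) of an ETn retrotransposon, a mobile element with many copies in the mouse genome. Its sequence is shown because it sets which transcripts the probe can bind.
A_55_P2745482: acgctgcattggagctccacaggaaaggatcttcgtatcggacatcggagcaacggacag
All 60 of its bases were found in the RefSeq promoter window of LOC108167564 on chromosome 8, and 59 of 60 in that of A630077J23Rik on chromosome 4. The Fas transcript itself was not searched, and no promoter window of Fas held the first, middle or last 20 bases of the probe. Its signals were 181 and 128 on the arrays labelled Junbfl/flCd4-Cre and 403 and 205 on the controls, which overlapped after scaling. The difference was -0.49 ± 0.36 with an adjusted limma p of 0.362, and it is not counted here as a level of Fas.

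Tnfrsf26, a mouse receptor next to Tnfrsf22 and Tnfrsf23 on chromosome 7, had 289 and 221 on the arrays labelled Junbfl/flCd4-Cre and 155 and 227 on the controls (probe A_52_P554536, mm9, chr7:150793990-150794049, minus strand). Before scaling, control 2 lay just above array 2 labelled Junbfl/flCd4-Cre, and after it both controls lay below. Its difference was 0.86 ± 0.26, with an adjusted limma p of 0.101. The number 1 arrays differed by 1.23 and the number 2 arrays by 0.48.

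Counted together, 1 of the 14 tested receptor probes was called, or 7.14%, against 6.78% of all tested probes, 2277 of 33606. By direction, 5.53% of all probes were called higher on the arrays labelled Junbfl/flCd4-Cre and 1.25% lower. A share this near the background is no result about the receptors. Of the 14, 8 were higher and 6 lower on the arrays labelled Junbfl/flCd4-Cre, with a median difference of 0.38 against -0.01 over all probes. These counts include the LTR probe named Fas. Without it, 8 of 13 were higher and 5 lower, the median was 0.63, and 1 was called, or 7.69%. At an unadjusted limma p under 0.05 there were 8, or 57.1%, against 38.2% of all probes, and 10 probes, or 71.4%, did not overlap between genotypes after scaling, against 72.2%. The 10 were 7 higher and 3 lower on the arrays labelled Junbfl/flCd4-Cre, and over all probes 34.4% did not overlap and were higher and 37.8% did not overlap and were lower. With an unadjusted limma p under 0.05, 6 of the 14 were higher, against 19.8% of all probes. They were both probes of Tnfrsf9 and of Tnfrsf1b with Tnfrsf26 and Cd27. With such a p, 2 of the 14 were lower, against 18.4% of all probes, namely Tnfrsf25 and Tnfrsf1a A_51_P106047. Among probes with such a p, 6 of 8 were thus higher for the receptors, and 6667 of 12843 over the array. The sign was the same between the number 1 arrays as between the number 2 arrays at 12 of the 14 probes, all except Tnfrsf18 and Fas A_52_P73385.

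The scaling moved these values together. Scaled to the median, the difference over all probes had a median of -0.54, against -0.01 with the 75th percentile, and the called probes over the array were 12972, of which 18.5% were higher on the arrays labelled Junbfl/flCd4-Cre, against 2277 of which 81.6% were. The called receptor probes were then Tnfrsf1a with both probes and Tnfrsf25, all lower, and Tnfrsf9 was not called. By construction, this scaling subtracts the same 0.53 from every probe's difference, so the order of the probes is fixed. The difference also followed brightness: over 5 classes of equal size, the median difference of all tested probes was 0.68, 0.27, 0.01, -0.23 and -0.35 from the dimmest to the brightest. Both Tnfrsf9 probes were in the brightest class, with differences of 1.21 and 1.28, as were Tnfrsf4, Tnfrsf18, Tnfrsf25, Tnfrsf1b A_52_P228621 and Fas A_55_P2091676. The part of brightness in the receptor values was not tested.

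**Figure D3:**
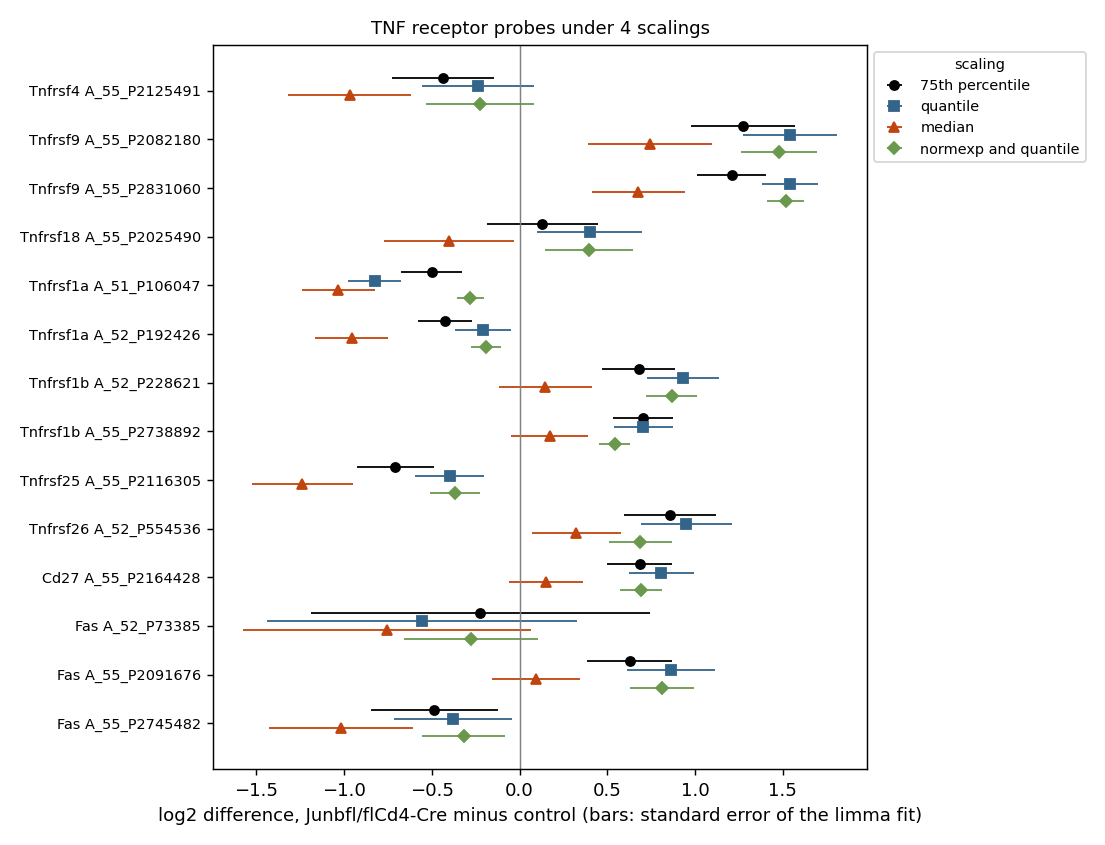
Log2 difference, labelled Junbfl/flCd4-Cre minus control, of the 14 tested receptor probes under 4 scalings, with bars for the standard error of the limma fit (n = 2 arrays per genotype). Scaling to the median moves every probe down, to 0.68 for the called Tnfrsf9 probe and to -1.24 for Tnfrsf25, and turns Tnfrsf18 negative.

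Markers of other cell types moved with the genotype too. The summed signal of 8 myeloid markers, in units of the 75th percentile, was 61.3 and 32.4 on the arrays labelled Junbfl/flCd4-Cre and 26.2 and 17.8 on the controls. Csf1r, Itgam, Cd68 and Fcgr3 were above background on all 4 arrays, and Adgre1 on none. None of the 9 tested myeloid probes was called by limma, and 2 had an unadjusted p under 0.05. For 7 B cell markers it was 5.77 and 3.93 against 3.03 and 0.951, with Blk at background on all arrays. Of 6 tested B cell probes 2 were called higher, or 33.3%, against 5.53% of all probes. They were a probe of Ms4a1 at 3.18 ± 0.26 (adjusted limma p 0.0273) and that of Ebf1 at 1.67 ± 0.27 (0.0479). The Ebf1 call was lost with normexp and with quantile normalization (adjusted p 0.145 and 0.105). The sum for 6 markers of CD8 T and NK cells was 4.73 and 6.05 against 3.86 and 4.24, with Ncr1 at background. For the T cell markers it was 597 and 556 against 739 and 722. Of their 17 tested probes 3 were called lower, or 17.6%, against 1.25% of all probes, and none higher. They were 2 probes of Cd2 at -1.23 and -1.33 (adjusted limma p 0.0450 and 0.0495) and that of Thy1 at -0.98 (0.0452). With quantile normalization none of the 3 was called (adjusted p 0.0782, 0.0828 and 0.0743). With normexp only Thy1 was (0.0631, 0.0751 and 0.0468). The part of these marker genes in the receptor values was not tested.

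The probes most like the called Tnfrsf9 probe over the 4 arrays, by Euclidean distance between centred log2 values among 24429 probes with a plain gene symbol, were those of Lrp3, an LDL receptor-related gene (0.0543), Mcu, the pore subunit of the mitochondrial calcium uniporter (0.0634), and Wnt10b, a Wnt ligand (0.0709). Likeness over 4 arrays is a description.

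Of the 9 ligands of the receptors, 8 were tested with 11 probes, with 1 called probe on the higher side (9.09%, against 5.53% of all probes) and 1 on the lower (9.09%, against 1.25%). Tnfsf15, which encodes the DR3 ligand TL1A, had processed signals of 33.1 and 36.2 on the arrays labelled Junbfl/flCd4-Cre and 14.7 and 16.1 on the controls. It rose by 1.60 ± 0.21 (adjusted limma p 0.0361). With normexp, the difference of this dim probe was 0.38 (adjusted p 0.0887), and with quantile normalization 1.23 (0.0644), neither of them called. Lta, which encodes lymphotoxin alpha, a ligand of both TNF receptors, had 604 and 1070 against 7859 and 6781, and fell by 2.75 ± 0.40 (adjusted limma p 0.0429), a call lost with normexp and with quantile normalization (adjusted p 0.0702 and 0.0679). For both genes the genotypes did not overlap, as at 72.2% of all tested probes after scaling. Tnf, named here after its values were seen, had 188 and 170 against 466 and 410 at one probe and 438 and 419 against 1165 and 992 at the other. Its differences of -0.86 and -0.90 missed the threshold (adjusted limma p 0.0566 and 0.0590). The other uncalled ligands are given beside Tnf. Cd70 was at 1.66 ± 0.54 (adjusted limma p 0.109) and Fasl at -0.85 ± 0.35 (0.160). The probes of Tnfsf4, Tnfsf8 and Tnfsf9 lay between -0.25 and 0.31. Of the 11 probes, 5 were higher and 6 lower. The median over the 11 probes was -0.04, against -0.01 over all probes. Tnfsf18, the GITR ligand, was not above background.

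Among 18 further receptors of the superfamily, 13 were tested with 24 probes, 1 called higher (4.17%, against 5.53% of all probes) and 2 lower (8.33%, against 1.25%), with a median difference of -0.19 against -0.01. Both lower probes were of Tnfrsf13b, which encodes TACI, a receptor for the B cell factors BAFF and APRIL. The probes had 823 and 630 on the arrays labelled Junbfl/flCd4-Cre against 2195 and 2478 on the controls, and 11.5 and 10.6 against 33.5 and 36.4. Tnfrsf13b fell by 1.27 ± 0.18 and 1.23 ± 0.16 (adjusted limma p 0.0399 and 0.0382), and the third probe was at -0.87 (0.0749). With normexp neither call held (adjusted p 0.0740 and 0.0702). The higher probe was of Ngfr, the low-affinity neurotrophin receptor, with 11.3 and 7.66 against 3.35 and 3.23, which was not well above background on either control. Its signal was therefore at least 2.15-fold higher (adjusted limma p 0.0283), by the same rule as for Dcn. With normexp it was not called (adjusted p 0.24).

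Downstream of the receptors, the adaptors came first. The list held 20 genes, namely TRAF and other adaptors, kinases, and regulators such as Cyld, Birc2 and Birc3. All were tested, with 51 probes. None was called higher and 1 lower, or 1.96% against 1.25% of all probes. At an unadjusted p under 0.05 there were 16, or 31.4% against 38.2%. The called probe was of Traf6, a ubiquitin ligase. That probe had 93.1 and 97.8 on the arrays labelled Junbfl/flCd4-Cre and 300 and 266 on the controls, and fell by 1.14 ± 0.19 (adjusted limma p 0.0498), a call lost with normexp and with quantile normalization (adjusted p 0.0574 and 0.0680). The other Traf6 probes were at -1.22, -1.07, -0.70 and -0.63 and were not called, so the 5 probes shared their sign. The median over the list was -0.12, against -0.01 over all probes.

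The 10 genes of death signalling reported here were tested with 18 probes. Limma called none of these, against 6.78% of all probes, and 4, or 22.2%, had an unadjusted p under 0.05, against 38.2%. The median was -0.06, against -0.01. The smallest p belonged to Fadd, the adaptor that binds the death domain of Fas, with 126 and 93.0 on the arrays labelled Junbfl/flCd4-Cre and 262 and 206 on the controls. Its difference was -0.67 ± 0.19 (adjusted limma p 0.0908). Ripk3, a kinase of necroptosis, followed with 868 and 604 against 1655 and 1410, and a difference of -0.65 ± 0.19 (adjusted limma p 0.0933). At both genes each array labelled Junbfl/flCd4-Cre was below each control, as at 37.8% of all tested probes after scaling. None of the 23 probes of 12 NF-kappaB subunits and inhibitors was called by limma, against 6.78% of all probes. An unadjusted p under 0.05 was found for 4, or 17.4%, against 38.2% of all probes, and the median was -0.08. The smallest were Tnfaip3, which encodes the inhibitor A20, at 0.88 ± 0.20 (adjusted limma p 0.0710), and 1 probe of the subunit gene Relb at 0.95 ± 0.22 (0.0746). Tnfaip3 had 1069 and 1161 on the arrays labelled Junbfl/flCd4-Cre against 813 and 823 on the controls. The other Relb probes were at -0.08 and 0.02, so the Relb probes disagreed. No call in these lists was kept when any 1 array was left out. Nor was any other call on the array, so this is no result about the lists.

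**Figure D4:**
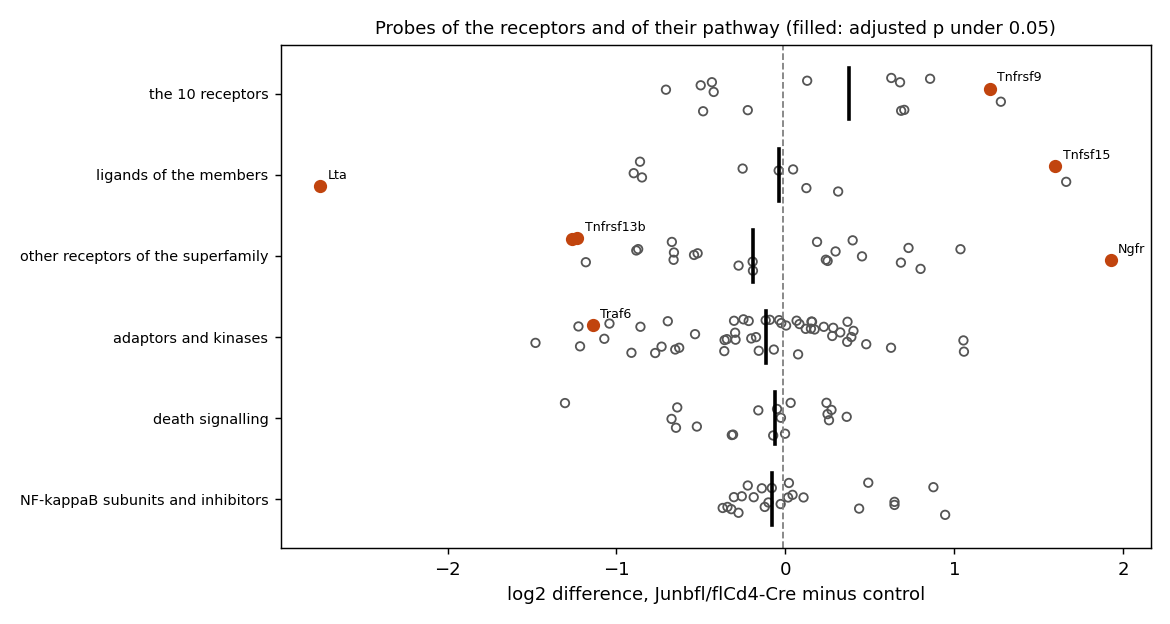
Log2 difference, labelled Junbfl/flCd4-Cre minus control, of the tested probes of the 10 receptors, their ligands, the other receptors of the superfamily and 3 lists of signalling genes. Filled points are called (adjusted p under 0.05), bars are list medians and the dashed line is the median of all probes, -0.01. Lta at -2.75 is lowest among the called probes shown, and Ngfr, fitted against controls at background, Tnfsf15 and Tnfrsf9 are the called probes on the higher side.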

How the data were processed

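RNA of in vitro differentiated Treg cells was measured on 4 arrays. Per the file headers, Agilent Feature Extraction (11.5.1.1) was the reading software and recorded for each spot a mean, a background and a processed intensity, the last background-subtracted but not scaled between arrays. The authors also deposited a table of log2 signals, log2 differences and p-values per transcript. Their normalization is not stated in the labels or headers. Probe positions are those in the files (mm9), and no mm9 annotation was used, so exons are not given.

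From the processed intensity, 59305 non-control spots per array were used, 108 to 215 outlier spots were left out, spots of a probe were averaged, and 295 probes with no usable spot on 1 or more arrays were dropped. No spot was saturated. Signals were put on the log2 scale, the 75th percentile was subtracted, and 33606 probes whose signal was well above background on each array of 1 genotype or both were fitted with limma 3.58.1 (R 4.3.3, lmFit and eBayes, no covariate, 2 residual degrees of freedom). The number of arrays limits the precision. Pearson r over probes was 0.978 between the arrays labelled Junbfl/flCd4-Cre, 0.981 between the controls and 0.930 to 0.953 between genotypes.

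Every probe of the 10 receptors is named, and of each list the called genes (up to 4) or, with none called, the 2 with the smallest p. The uncalled ligands are named besides. One listed gene is not reported here. The members and lists were chosen with earlier results of these data known. Alternatives were normexp background correction, quantile and median scaling, filters, 1 probe per gene, the deposited log2 signals, a replicate block and leaving out each array. All arrays share 1 slide and 1 scan time, so neither could be a block. Python 3.11.15 with pandas 2.3.3 and numpy 2.4.6 wrote the tables, and matplotlib 3.10.9 drew the figures.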

Additional observations from a re-analysis of the deposited data

How the results depend on the processing

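The called Tnfrsf9 probe was positive under all 12 alternatives and called under 6 of them. Among these are the deposited signals, whose single Tnfrsf9 row stands for both probes of the gene. Over the array, 2277 called probes became 343 with normexp, 650 with quantile normalization, 12972 with median scaling, 1377 with probes above background on all 4 arrays, 641 transcripts with the deposited signals and 8522 with the replicate block. Receptor calls went from 1 to 3 with median scaling and 2 with the replicate block, which added Tnfrsf9 A_55_P2082180 (adjusted p 0.0381), and stayed 1 without the LTR probe named Fas, a choice made after seeing the data. Ligand calls (2) became 0 with normexp, quantile normalization and the deposited signals, 5 with median scaling and 6 with the block. Adaptor calls (1) became 0 with normexp, quantile normalization, 1 probe per gene and the deposited signals, 21 with median scaling and 10 with the block. Death signalling calls (0) became 6 with median scaling, and NF-kappaB calls (0) became 3 with median scaling and 2 with the block. Calls of other receptors (3) became 0 with normexp and the deposited signals, 1 with quantile normalization, 9 with median scaling and 7 with the block. With no filter on dim probes, and with any 1 array left out, limma called 0 probes over the array, the receptors and every list (0 to 0), although 12028 and 7315 to 11361 probes of the array, and 5 and 2 to 8 receptor probes, had an unadjusted p under 0.05. Without the filter there were more tests, and leaving out an array left fewer arrays. The cause of the changed counts was not tested for any setting. Tnfrsf18 reversed to -0.40 with median scaling and -0.27 without control 2, and its range without single arrays was -0.27 to 0.52. Fas A_52_P73385 reversed to 1.07 without control 2 and 0.23 without array 1 labelled Junbfl/flCd4-Cre, in a range of -1.51 to 1.07. The labels do not say that equal array numbers mark pairs. Differences between number 1 and number 2 arrays correlated between genotypes (0.45 across probes, which are not independent), and the numbers coincide with the row on the slide.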
